A study of Homo sapiens with 36 samples.

Results

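Transcript levels of 9 genes of homologous recombination are described here: BRCA1, BARD1, BRIP1, RBBP8, EXO1, BLM, PALB2, BRCA2 and RAD54L. They were taken by symbol, and every probe set annotated to 1 of them alone was used, 196 of the 352859 probe sets in the deposited table. BLM had 26, BRCA1, BRCA2 and RAD54L 24 each, EXO1 and RBBP8 23 each, BRIP1 21, BARD1 17 and PALB2 14. Where 1 value per gene was needed, the probe set with the highest mean over all arrays stood for the gene, and the 9 were then 9 of 22260 genes. All values are log2 probe-set signals, and 180 of the 196 probe sets had a mean of 5 or more, above the lower quartile of the arrays (2.96 to 3.04). The cells were DU145, a human prostate carcinoma line, and CCRF-CEM, which was derived from a T-cell acute lymphoblastic leukaemia, each as SLFN11-positive parent cells and as SLFN11-knockout cells, all grown in RPMI1640 with serum. SLFN11 is a nuclear protein recruited to stalled forks, and cells that express it are more easily killed by drugs that damage DNA during replication. Each of these 4 populations was measured untreated (treatment none, with DMSO named in the treatment protocol) and at 6 h and 12 h of 250 nM camptothecin, which traps topoisomerase I on DNA. That made 12 groups of 3 arrays. The harvest time of the untreated cells is not given, and nothing in the labels says that the 3 arrays of a group came from separate cultures, so p-values measure the spread between these arrays, which may be technical. Each line had 1 knockout group, not said to be a clone or a pool, so the loss of SLFN11 and the history of those cells cannot be told apart.

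Homologous recombination repairs a broken chromosome or a collapsed replication fork by copying the sister chromatid, and it is the main route by which cells mend the breaks that form when a fork meets a trapped topoisomerase I. RBBP8 (CtIP) starts the trimming of the broken end, the exonuclease EXO1 and the helicase BLM extend it, and BRCA1, with its partner BARD1 and the helicase BRIP1, promotes that step and recruits the next. PALB2 then links BRCA1 to BRCA2, which loads the recombinase filament onto the single strand, and RAD54L, a DNA translocase, helps that filament invade the sister. Many of these genes are transcribed mainly in S phase and G2.

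The start regions of 3 members are shown because these genes set the range of calls at the brightest probe sets. EXO1 rose in all 8 comparisons of camptothecin with control. RAD54L was called higher in parent cells of DU145 and in knockout cells of CCRF-CEM, and BRIP1 was the only member called lower. With the mean of all probe sets RAD54L also passed in DU145 knockout cells at 12 h. In CCRF-CEM knockout cells it then passed at 6 h but not at 12 h. Its genotype difference in DU145 passed at neither time. The sequences are RefSeq promoter windows (GRCh38.p14), 5′ to 3′ on the gene's strand, from 250 bases before to 50 bases after an annotated start. Capitals mark matches, on either strand, to an E2F motif (TTTCCCGC, TTTCGCGC, TTTGCCGC or TTTGGCGC), a CHR motif (TTTGAA or TTCGAA) or a CCAAT box (CCAAT). No probe set here measures a promoter.
EXO1, chr1:241847954-241848253, + strand: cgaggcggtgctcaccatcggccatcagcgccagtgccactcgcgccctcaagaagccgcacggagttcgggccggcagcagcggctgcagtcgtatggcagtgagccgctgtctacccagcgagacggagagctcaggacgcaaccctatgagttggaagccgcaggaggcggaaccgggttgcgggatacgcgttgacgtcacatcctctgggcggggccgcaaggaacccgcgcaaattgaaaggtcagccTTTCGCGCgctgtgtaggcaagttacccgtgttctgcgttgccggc
RAD54L, chr1:46247438-46247737, + strand: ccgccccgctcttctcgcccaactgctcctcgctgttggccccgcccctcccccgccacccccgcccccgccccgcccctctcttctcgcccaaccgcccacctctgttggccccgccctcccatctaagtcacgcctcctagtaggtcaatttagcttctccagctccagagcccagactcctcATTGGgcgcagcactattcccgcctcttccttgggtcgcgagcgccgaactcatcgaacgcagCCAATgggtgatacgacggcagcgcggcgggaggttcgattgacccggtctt
BRIP1, chr17:61863479-61863778, - strand: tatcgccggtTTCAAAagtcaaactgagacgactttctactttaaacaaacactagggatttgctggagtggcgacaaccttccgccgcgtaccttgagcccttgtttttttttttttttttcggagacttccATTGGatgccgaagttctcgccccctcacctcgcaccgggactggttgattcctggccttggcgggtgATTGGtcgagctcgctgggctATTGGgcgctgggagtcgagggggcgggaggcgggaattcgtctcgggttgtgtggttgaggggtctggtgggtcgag
The E2F letters stood at base 5 after the EXO1 start and in none of the other 12 windows of the 9 members, against 3.31% of all 35116 RefSeq windows of this length. CHR letters were found in the BRIP1 window alone (16.4% of all windows) and CCAAT in 6 of the 13 member windows, from 5 genes (34.6% of all windows). A match is a description of these letters and no evidence of binding.

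The arrays were alike in scale, with medians of 4.78 to 4.86, and arrays of 1 group correlated at Pearson r of 0.979 to 0.988 across genes. In untreated parent cells the median of 8 epithelial markers was 10.45 in DU145 and 6.23 in CCRF-CEM, and that of 8 T-lineage markers was 5.66 and 10.68. SLFN11 itself was read by 11 probe sets, and they did not all follow the labels. Of these, 3 were lower and 2 higher in untreated DU145 knockout than parent cells, and 1 was lower and 0 higher in CCRF-CEM. Probe set 16843409 was lower in untreated knockout than parent cells, by -2.85 ± 0.48 in DU145 (± SE, adjusted p = 0.00649) and -1.07 ± 0.14 (adjusted p = 0.00233) in CCRF-CEM. In DU145 16843412 was higher by 2.14 ± 0.52 (adjusted p = 0.0482), from a mean of 3.00, and 16843410 by 0.70 ± 0.15 (adjusted p = 0.028). The brightest, 16843413, did not pass (0.41 ± 0.19, adjusted p = 0.324, and 0.34 ± 0.14, adjusted p = 0.49). Where in the gene the edit lies is not stated, which makes this a partial check of the labels.

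**Figure D1:**
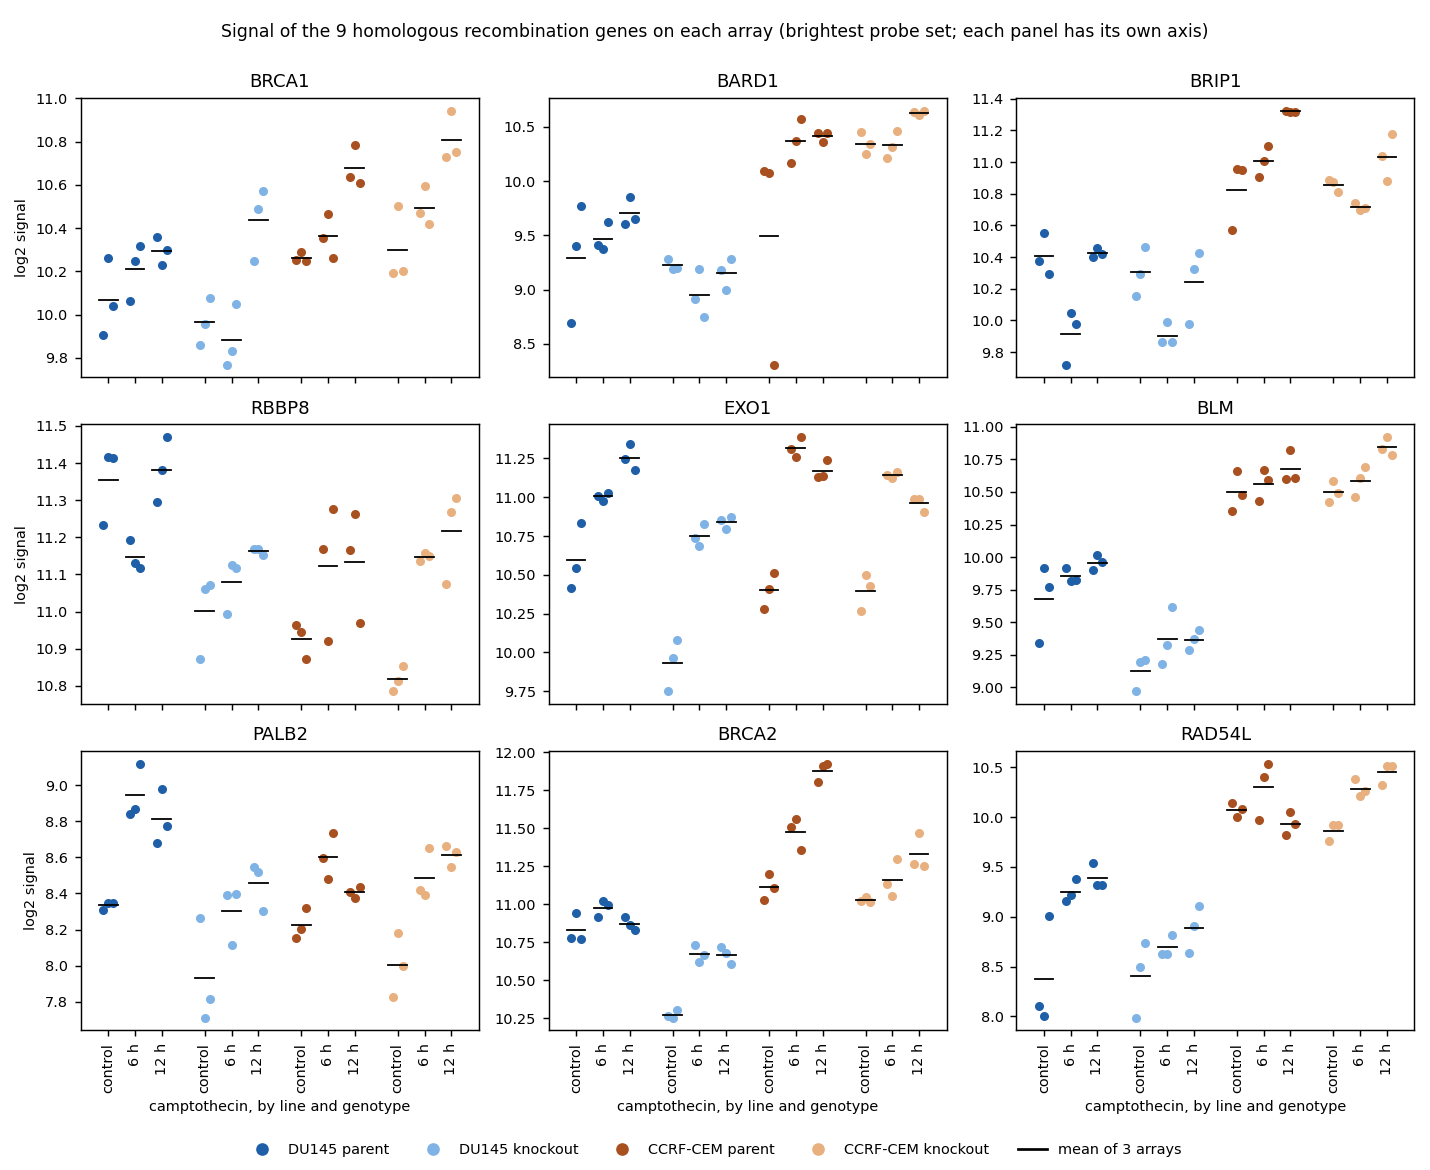
Log2 signal of each gene's brightest probe set (vertical axis, a separate range in each panel) on every array, for control cells and 6 h and 12 h of camptothecin in each line and genotype (horizontal axis); points are arrays and black lines are means of 3. EXO1 was above its controls in every treated group, and 1 CCRF-CEM parent control array of BARD1, at 8.31, lay far below the others of its group.

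Camptothecin raised between 2 and 5 of the 9 genes in each comparison with control, and EXO1 was among them every time. Of the 9, 3 rose and 1 fell at 6 h in DU145 parent cells, where 5.67% of all genes were called higher and 4.42% lower (limma, adjusted p below 0.05). At 12 h there 2 rose and 0 fell, against 3.8% and 3.89%. DU145 knockout cells had 2 higher and 0 lower members at 6 h (all genes 5.32% and 3.39%) and 4 and 0 at 12 h (6.31% and 3.72%). CCRF-CEM parent cells had 3 and 0 at 6 h (7.36% and 5.06%) and 4 and 0 at 12 h (9.51% and 7.3%), and CCRF-CEM knockout cells 2 and 0 at 6 h (3.52% and 2.92%) and 5 and 0 at 12 h (5.4% and 2.81%). The median log2 change of the 9 ran from 0.18 in DU145 parent cells at 6 h to 0.41 in CCRF-CEM parent cells at 12 h, while the median over all genes lay between -0.02 and 0.04 in these 8 comparisons. The 6 h and 12 h comparisons of a population share their 3 control arrays.

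**Figure D2:**
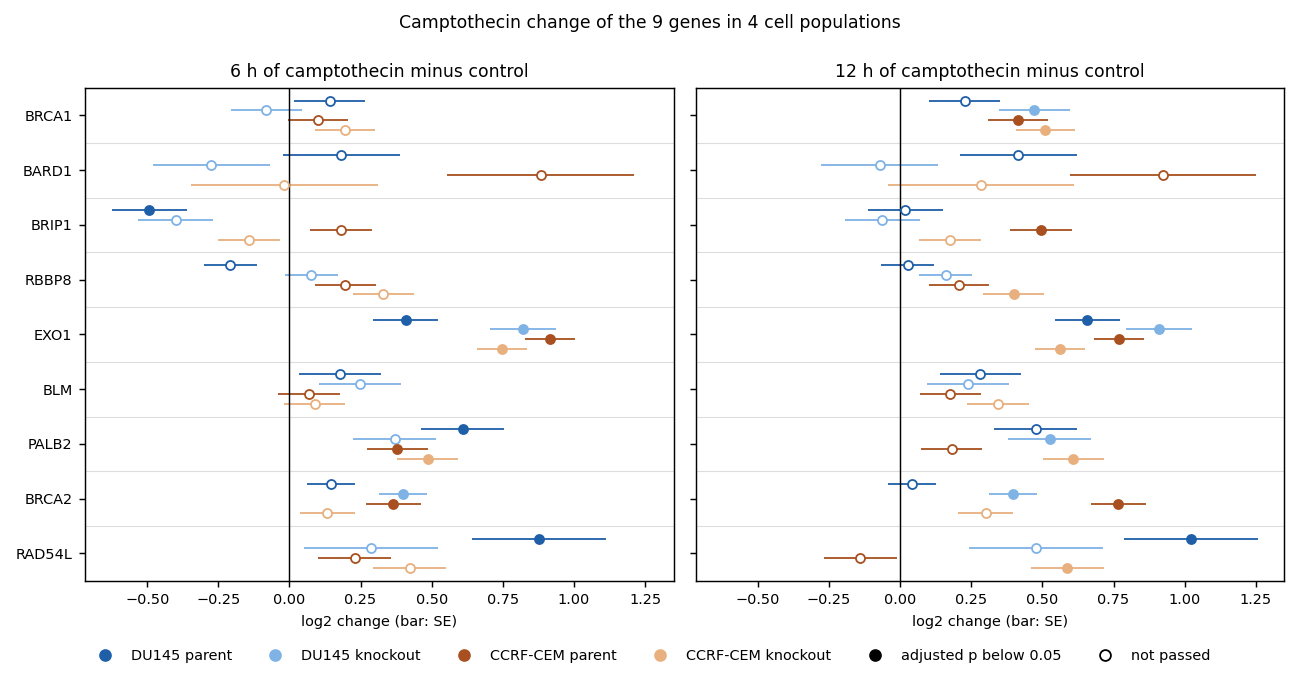
Log2 change from control (horizontal axis, bars are SE from limma) of the 9 genes (vertical axis) at 6 h and 12 h in the 4 populations; filled points passed an adjusted p of 0.05. All 8 EXO1 points are filled and lie between 0.41 and 0.92, and the filled BRIP1 point at 6 h, at -0.49, is the only filled point below 0.

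EXO1, the exonuclease of long-range end resection, was the only member called higher in all 8 comparisons, with changes of 0.41 to 0.92. In DU145 parent cells it stood at 10.41, 10.55 and 10.83 in controls, 11.01, 10.98 and 11.03 at 6 h and 11.24, 11.35 and 11.18 at 12 h. In DU145 knockout cells the values were 9.75, 9.96 and 10.08 in controls, 10.74, 10.69 and 10.83 at 6 h and 10.85, 10.80 and 10.87 at 12 h. All treated arrays lay above all controls of their population in both. The rise was 0.41 ± 0.12 (± SE, adjusted p = 0.0358) and 0.66 ± 0.12 (adjusted p = 0.00233) in parent cells and 0.82 ± 0.12 (adjusted p = 0.000649) and 0.91 ± 0.12 (adjusted p = 0.000238) in knockout cells. The DU145 parent call at 6 h was lost when control array 1 or 2 or any of the 3 arrays of 6 h was left out, with log2 changes of 0.32 to 0.53 over all 6 omissions and an adjusted p of up to 0.141.

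In CCRF-CEM parent cells EXO1 was 10.28, 10.41 and 10.51 in controls, 11.31, 11.26 and 11.39 at 6 h and 11.13, 11.14 and 11.24 at 12 h. In the knockout cells it was 10.27, 10.50 and 10.43, then 11.14, 11.13 and 11.16, then 10.99, 10.99 and 10.90. Again no treated array reached down to a control, and in both genotypes every 12 h array lay below every 6 h array. The rise was 0.92 ± 0.09 (adjusted p = 9.26e-06) and 0.77 ± 0.09 (adjusted p = 2.94e-05) in parent cells and 0.75 ± 0.09 (adjusted p = 0.000186) and 0.56 ± 0.09 (adjusted p = 0.00177) in knockout cells. The decline from 6 h to 12 h did not pass (-0.15 ± 0.09, adjusted p = 0.391, and -0.18 ± 0.09, adjusted p = 0.357). Of its 23 probe sets, 15 rose in CCRF-CEM parent cells at 6 h and 13 at 12 h, 13 in DU145 knockout cells at 12 h and 12 in DU145 parent cells at 12 h. The smallest counts were 3 at 6 h in DU145 parent cells and 4 at 12 h in CCRF-CEM knockout cells.

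RBBP8, which starts resection, and BLM, the helicase that assists it, had few calls at their brightest probe sets. RBBP8 passed in 1 of 8 comparisons, CCRF-CEM knockout cells at 12 h. It stood there at 10.79, 10.81 and 10.85 in controls and at 11.07, 11.27 and 11.30 after treatment, with no overlap. The rise was 0.40 ± 0.11 (adjusted p = 0.032). It was lost without any of the 3 control arrays or 12 h array 2 or 3, with an adjusted p of up to 0.112 and log2 changes of 0.35 to 0.47, and also under cyclic loess (adjusted p = 0.0537). The mean of all RBBP8 probe sets kept it, at 0.35 ± 0.10 (adjusted p = 0.0427). At 6 h in the same cells the change of 0.33 passed under the variance trend and in 1 fit of all arrays (limma, adjusted p = 0.0265 and 0.0284). It did not pass in the main fit or with that mean (0.23 ± 0.10, adjusted p = 0.208). At 12 h in CCRF-CEM parent cells the brightest gave 0.21 and did not pass, but the mean of all 23 RBBP8 probe sets passed, at 0.37 ± 0.10 (adjusted p = 0.0166). There 20 of the 23 were positive, 2 passed as higher and 1 as lower, and 13 had an unadjusted p below 0.05. At 6 h in DU145 parent cells RBBP8 read 11.19, 11.13 and 11.12 against 11.23, 11.42 and 11.41 in controls, a separation of the groups by -0.21 ± 0.09 that did not pass (adjusted p = 0.201). BLM passed at its brightest probe set in none of the 8 comparisons, with changes of 0.07 to 0.34 and the smallest adjusted p, 0.0652, in CCRF-CEM knockout cells at 12 h, where its 3 treated arrays (10.83, 10.92 and 10.78) lay above its controls (10.42, 10.59 and 10.49). That change passed under 3 alternatives, among them the variance trend and the filter on a mean of 5 (adjusted p = 0.0241 and 0.0444). In DU145 knockout cells at 12 h, where the brightest gave 0.24, the mean of all 26 BLM probe sets passed, at 0.40 ± 0.12 (adjusted p = 0.0234), and 24 of the 26 were positive. Single probe sets of BLM did pass, 1 of 26 in the knockout cells of each line at 12 h.

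BRCA1, the ubiquitin ligase that commits broken ends to recombination, rose at 12 h in 3 populations. In CCRF-CEM parent cells it went from 10.25, 10.29 and 10.25 in controls to 10.64, 10.79 and 10.61 at 12 h, a rise of 0.41 ± 0.11 (adjusted p = 0.0127). In CCRF-CEM knockout cells it went from 10.19, 10.50 and 10.20 to 10.73, 10.94 and 10.75, a rise of 0.51 ± 0.11 (adjusted p = 0.00845). DU145 knockout cells read 9.86, 9.96 and 10.08 in controls and 10.25, 10.49 and 10.57 at 12 h, a rise of 0.47 ± 0.13 (adjusted p = 0.0261). None of these groups overlapped. At 6 h BRCA1 passed in no population at this probe set, with changes from -0.08 to 0.20. The mean of all its 24 probe sets did pass in CCRF-CEM parent cells at 6 h, at 0.32 ± 0.08 (adjusted p = 0.012), where 23 of the 24 had a positive change and 1 passed. In DU145 parent cells its 12 h change was 0.23 ± 0.13 (adjusted p = 0.328). The call in CCRF-CEM parent cells was lost without 12 h array 2 (adjusted p = 0.0618) and that in DU145 knockout cells without control array 1 or 2 or 12 h array 2 or 3 (adjusted p up to 0.0998).

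BARD1, the partner that stabilises BRCA1, passed in none of the 8 comparisons. Its nominal changes in CCRF-CEM parent cells, 0.88 ± 0.33 at 6 h (adjusted p = 0.102) and 0.92 ± 0.33 at 12 h (adjusted p = 0.07), turned on 1 control array. The 3 controls read 10.09, 10.07 and 8.31, against 10.17, 10.37 and 10.58 at 6 h and 10.44, 10.36 and 10.44 at 12 h. Without the low array the changes were 0.29 (adjusted p = 0.146) and 0.33 (adjusted p = 0.0881). The mean over all 17 BARD1 probe sets showed no such gap, at 7.48, 7.68 and 7.55 on the same 3 arrays. In DU145 knockout cells at 6 h 2 of 17 BARD1 probe sets were lower, 16907973 by -0.91 ± 0.22 (adjusted p = 0.04) and 16907974 by -0.82 ± 0.15 (adjusted p = 0.0113), while the brightest gave -0.28 ± 0.21.

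BRIP1, the helicase that binds BRCA1, was the single member whose brightest probe set fell, at 6 h in DU145 parent cells. In DU145 parent cells it stood at 10.38, 10.55 and 10.29 in controls, 9.72, 10.05 and 9.98 at 6 h and 10.40, 10.46 and 10.42 at 12 h. The 6 h arrays lay below all others and the 12 h arrays within the range of the controls. The change was -0.49 ± 0.13 at 6 h (adjusted p = 0.0268) and 0.02 ± 0.13 at 12 h (adjusted p = 0.958). The fall was lost without control array 1 or 2 or 6 h array 1 or 3, with log2 changes of -0.56 to -0.40 over the 6 omissions and an adjusted p of up to 0.113. DU145 knockout cells read 10.15, 10.29 and 10.47 in controls and 9.86, 9.99 and 9.86 at 6 h, also separate, but the change of -0.40 ± 0.13 did not pass (adjusted p = 0.0765). It passed under 3 alternatives, among them the mean of all probe sets, which gave -0.52 ± 0.12 (adjusted p = 0.00462) in knockout and -0.45 ± 0.12 (adjusted p = 0.0108) in parent cells. In CCRF-CEM parent cells BRIP1 rose at 12 h, from 10.57, 10.95 and 10.95 to 11.32 on all 3 arrays, by 0.50 ± 0.11 (adjusted p = 0.00519). Of its 21 probe sets, 20 had a negative 6 h change in DU145 parent cells, with 0 passing over all probe sets and 7 at an unadjusted p below 0.05. In DU145 knockout cells 20 were negative too, 2 passed as lower and 12 had an unadjusted p below 0.05. Of the same 21 probe sets, 7 rose in CCRF-CEM parent cells at 12 h.

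PALB2, the bridge between BRCA1 and BRCA2, passed as higher in each population at 6 h or 12 h, with a call in DU145 knockout cells that rested on the brightest probe set. In DU145 parent cells it was 8.31, 8.35 and 8.35 in controls, 8.84, 8.87 and 9.12 at 6 h and 8.68, 8.98 and 8.77 at 12 h. All treated arrays lay above all controls. The change was 0.61 ± 0.15 at 6 h (adjusted p = 0.015) and 0.48 ± 0.15 at 12 h, which did not pass (adjusted p = 0.0619). The 12 h change passed with the mean of all 14 PALB2 probe sets, at 0.64 ± 0.11 (adjusted p = 0.000519). DU145 knockout cells read 8.26, 7.71 and 7.82 in controls, 8.39, 8.11 and 8.40 at 6 h and 8.54, 8.52 and 8.30 at 12 h, with changes of 0.37 ± 0.15 (adjusted p = 0.146) and 0.53 ± 0.15 (adjusted p = 0.0334). The same mean gave 0.15 ± 0.11 (adjusted p = 0.416) for the latter. CCRF-CEM parent cells read 8.15, 8.20 and 8.32 in controls, 8.60, 8.48 and 8.73 at 6 h and 8.41, 8.37 and 8.44 at 12 h, with changes of 0.38 ± 0.11 (adjusted p = 0.0317) and 0.18 ± 0.11 (adjusted p = 0.321). The 12 h change there was 0.43 ± 0.10 with the mean of all probe sets and passed (adjusted p = 0.00546). Under cyclic loess the 6 h call was lost (adjusted p = 0.0513). In CCRF-CEM knockout cells PALB2 passed at both times. There it stood at 7.83, 8.18 and 8.0 in controls, 8.42, 8.39 and 8.65 at 6 h and 8.66, 8.54 and 8.63 at 12 h, and it rose by 0.49 ± 0.11 (adjusted p = 0.0157) and 0.61 ± 0.11 (adjusted p = 0.0036). The 12 h rise held without any 1 array. The other 4 calls did not: the adjusted p reached 0.0743 without DU145 parent 6 h array 3, 0.138 among the omissions of DU145 knockout control array 2 or 3 or 12 h array 1 or 2, 0.13 among those of CCRF-CEM parent control array 1 or 2 or 6 h array 1 or 3, and 0.0732 among those of CCRF-CEM knockout control array 1 or 6 h array 3.

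BRCA2, which loads the recombinase, was highest of its 12 groups in CCRF-CEM parent cells at 12 h and lowest in untreated DU145 knockout cells. In CCRF-CEM parent cells it stood at 11.03, 11.20 and 11.11 in controls, 11.51, 11.56 and 11.36 at 6 h and 11.81, 11.91 and 11.93 at 12 h. Each later group lay wholly above the one before. The rise was 0.36 ± 0.10 at 6 h (adjusted p = 0.0213) and 0.77 ± 0.10 at 12 h (adjusted p = 6.43e-05). BRCA2 was also the only member of the 9 to pass between 6 h and 12 h at its brightest probe set, at 0.40 ± 0.10 (adjusted p = 0.0264), where 5.78% of all genes changed. The 12 h rise held without any 1 array. The 6 h rise was lost without control array 1 or 3 or 6 h array 1 or 2 (adjusted p up to 0.0892), and the step from 6 h to 12 h without 6 h array 1 or 3 or any 12 h array (adjusted p up to 0.106). In the other 3 populations 0 members passed between the times. At an adjusted p below 0.05 limma called 0.454%, 0.386% and 0.517% of all genes in DU145 parent, DU145 knockout and CCRF-CEM knockout cells. At an unadjusted p below 0.05 there were 3, 2 and 3 members in the same order, a threshold at which all genes were not counted. Read by the mean of all its probe sets, BRCA1 rose from 6 h to 12 h in DU145 knockout cells, by 0.54 (adjusted p = 0.00692), and in CCRF-CEM knockout cells, by 0.33 (adjusted p = 0.0474).

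In CCRF-CEM knockout cells BRCA2 read 11.02, 11.05 and 11.01 in controls, 11.14, 11.05 and 11.30 at 6 h and 11.27, 11.47 and 11.25 at 12 h. Neither change passed, at 0.13 ± 0.10 (adjusted p = 0.497) and 0.30 ± 0.10 (adjusted p = 0.0691), although the 12 h arrays lay above the controls. The 12 h change did pass under the variance trend, the filter on a mean of 5 and 1 fit of all arrays (limma, adjusted p = 0.0169, 0.0459 and 0.0186). With the mean of all probe sets it was 0.27 ± 0.11 and did not pass (adjusted p = 0.138). In DU145 the calls lay in the knockout cells instead. Parent cells read 10.78, 10.94 and 10.77 in controls, 10.92, 11.02 and 10.99 at 6 h and 10.92, 10.86 and 10.83 at 12 h, with changes of 0.15 ± 0.08 (adjusted p = 0.341) and 0.04 ± 0.08 (adjusted p = 0.842). Knockout cells started lower, at 10.26, 10.25 and 10.30, and read 10.73, 10.62 and 10.66 at 6 h and 10.72, 10.68 and 10.61 at 12 h. That was a rise of 0.40 ± 0.08 at 6 h (adjusted p = 0.00887) and 0.40 ± 0.08 at 12 h (adjusted p = 0.00792). It held without any 1 array. With the mean of all 24 BRCA2 probe sets in place of the brightest the DU145 knockout changes were 0.28 and 0.04 and neither passed (adjusted p = 0.0739 and 0.834).

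RAD54L, the translocase of strand invasion, passed at both times in DU145 parent cells. In DU145 parent cells it stood at 8.11, 8.0 and 9.01 in controls, 9.16, 9.22 and 9.37 at 6 h and 9.54, 9.32 and 9.31 at 12 h. The treated arrays lay above all controls, and control array 3 lay well above the other controls. The rise was 0.88 ± 0.24 at 6 h (adjusted p = 0.0275) and 1.02 ± 0.24 at 12 h (adjusted p = 0.0146). Without control array 3 the changes were 1.20 and 1.34. The 6 h call was lost without control array 1 or 2 or any 6 h array (adjusted p up to 0.118) and the 12 h call without control array 1 or 2 or 12 h array 1 (adjusted p up to 0.072). DU145 knockout cells read 7.99, 8.50 and 8.73 in controls, 8.63, 8.63 and 8.82 at 6 h and 8.64, 8.91 and 9.11 at 12 h. These groups overlapped, and changes of 0.29 ± 0.24 (adjusted p = 0.558) and 0.48 ± 0.24 (adjusted p = 0.247) did not pass. With the mean of all 24 RAD54L probe sets the 12 h change was 0.34 ± 0.10 and passed (adjusted p = 0.0301).

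In CCRF-CEM RAD54L passed at its brightest probe set in knockout cells at 12 h and in parent cells at neither time. Parent cells read 10.14, 10.00 and 10.08 in controls, 9.97, 10.40 and 10.54 at 6 h and 9.82, 10.05 and 9.93 at 12 h, with overlap at both times. The changes were 0.23 ± 0.13 (adjusted p = 0.299) and -0.14 ± 0.13 (adjusted p = 0.562). Knockout cells read 9.76, 9.92 and 9.92 in controls, 10.38, 10.22 and 10.26 at 6 h and 10.33, 10.51 and 10.51 at 12 h, and the treated arrays lay above all controls. The change was 0.42 ± 0.13 at 6 h, which did not pass (adjusted p = 0.067), and 0.59 ± 0.13 at 12 h, which did (adjusted p = 0.0119). The 6 h change passed with the mean of all probe sets, at 0.35 ± 0.09 (adjusted p = 0.0166), and with the variance trend and the filter (adjusted p = 0.0286 and 0.0462). The 12 h call was lost without control array 1 (log2 0.53, adjusted p = 0.057), in 1 fit of all arrays (adjusted p = 0.0547) and with the mean of all probe sets, which was 0.23 ± 0.09 (adjusted p = 0.121).

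Whether a member's response depended on genotype was tested as the change in parent cells minus the change in knockout cells. In DU145 0 of 9 members passed at 6 h and 0 at 12 h (limma; 2 and 1 at an unadjusted p below 0.05), where 1.11% and 1.13% of all genes did. In CCRF-CEM 0 passed at 6 h (0 also at an unadjusted p below 0.05; 2.23% of all genes) and 1 at 12 h (7.91% of all genes). That was RAD54L, at -0.73 ± 0.18 (adjusted p = 0.0243). The call was lost without CCRF-CEM parent control array 1 or 3, parent 12 h array 1, knockout control array 1 or knockout 12 h array 2 or 3, with values of -0.79 to -0.67 over the 12 omissions and an adjusted p of up to 0.0641. With the mean of all 24 RAD54L probe sets the difference was -0.29 ± 0.13 (adjusted p = 0.19), and in 1 fit of all arrays it did not pass either (adjusted p = 0.104). BRCA2 lay on the other side of 0 and just missed, at 0.47 ± 0.14 (adjusted p = 0.0503). With the mean of all its probe sets the BRCA2 difference was 0.61 ± 0.16 at 6 h (adjusted p = 0.0337) and 0.76 ± 0.16 at 12 h (adjusted p = 0.00502). At 12 h it passed under 6 of 18 alternatives, this mean included. Of the 18, 12 were omissions of 1 array, and among these it passed only without knockout 12 h array 2. The brightest probe set also passed under the variance trend, cyclic loess and the filter on a mean of 5 (limma, adjusted p = 0.00998, 0.0298 and 0.0323). In 1 fit of all arrays it passed too (adjusted p = 0.0099), and with the replicate block it did not. For the other members the CCRF-CEM difference at 12 h ran from -0.43 for PALB2 to 0.64 for BARD1, which was 0.05 without the CCRF-CEM parent control array at 8.31. In DU145 the 9 members ran from -0.41 to 0.59 at 6 h and from -0.36 to 0.54 at 12 h.

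The whole set of probe sets shows how far each gene's brightest probe set speaks for the rest. At 12 h in CCRF-CEM parent cells 45 of the 196 probe sets rose and 1 fell, where 3.42% of all 352859 rose and 3.28% fell. BRCA2 held 18 of the 45, with a median change of 1.04 over its 24 probe sets and a range of 0.50 to 1.71. At 6 h there 26 rose (2.22% of all). DU145 parent cells had 10 higher at 6 h (1.44% of all) and 19 at 12 h (0.878%), and DU145 knockout cells 10 higher and 5 lower at 6 h (0.907% and 1.74%) and 17 higher at 12 h (1.29%). CCRF-CEM knockout cells had 7 higher at each time (0.477% and 0.57%). The shares over all probe sets include many dimmer ones: 180 of the 196 had a mean of 5 or more, while array medians were 4.78 to 4.86. No share was counted among probe sets of like level. The 24 BRCA2 probe sets of CCRF-CEM knockout cells had medians of 0.03 at 6 h and 0.28 at 12 h, with 0 passing (1 and 7 at an unadjusted p below 0.05).

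**Figure D3:**
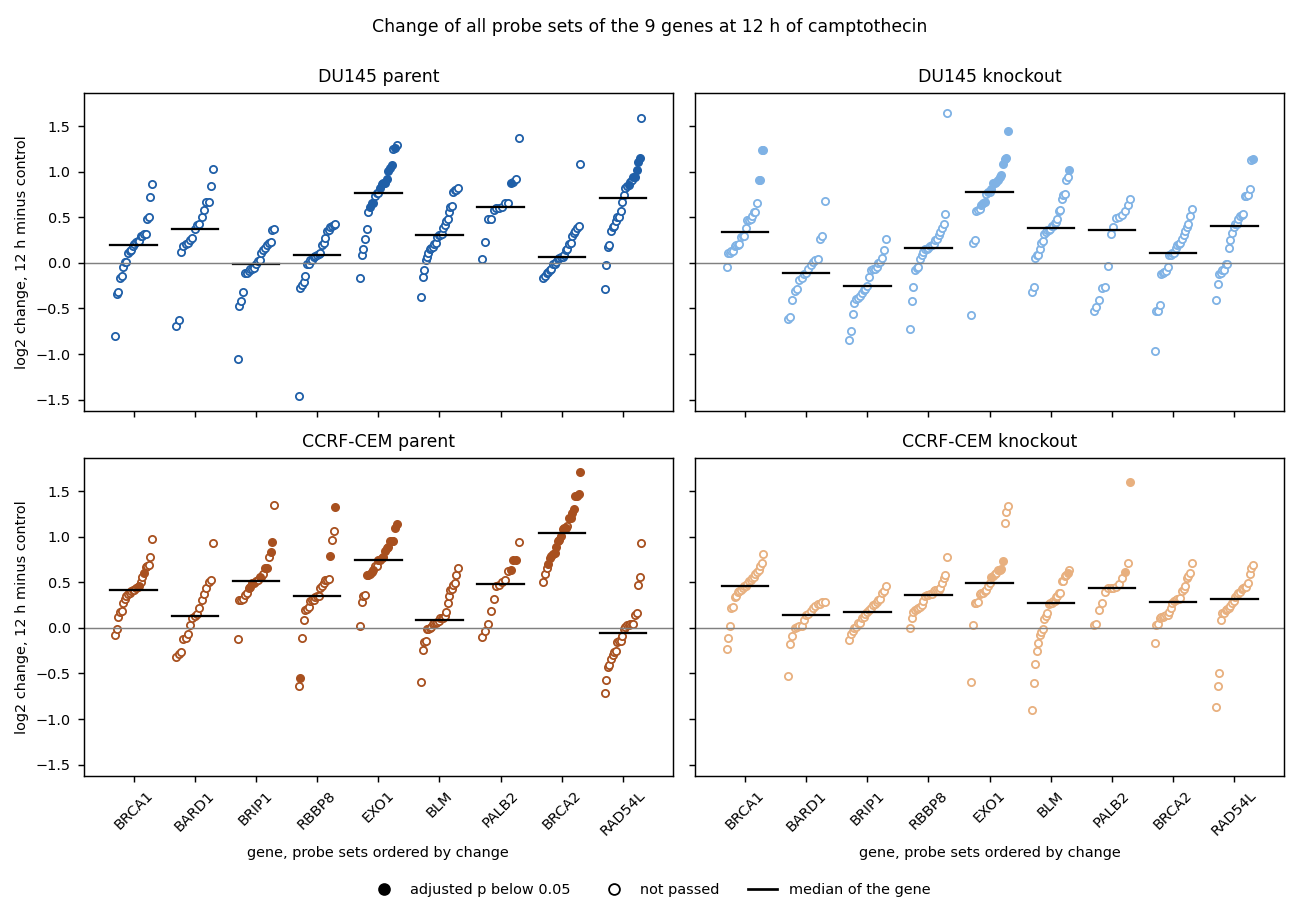
Log2 change at 12 h of camptothecin (vertical axis) of each of the 196 probe sets, ordered by change within their gene (horizontal axis), in the 4 populations; filled points passed an adjusted p of 0.05 over all 352859 probe sets and black lines are gene medians. The median of BRCA2 is 1.04 in CCRF-CEM parent cells and 0.28 in CCRF-CEM knockout cells, and that of EXO1 runs from 0.50 to 0.78 over the 4 panels.

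Most BRCA2 probe sets had a positive genotype difference in CCRF-CEM, but calls among the members were no more frequent than among all probe sets. In CCRF-CEM at 12 h 1 of 196 member probe sets passed (38 at an unadjusted p below 0.05), where 1.27% of all did. It was BRCA2 probe set 16773847, whose mean rose from 7.91 to 9.16 in parent cells and stood at 8.21 and 8.53 in knockout cells, a difference of 0.94 ± 0.19 (adjusted p = 0.0291). Of the 24 BRCA2 probe sets, 23 had a positive difference at 12 h and 22 at 6 h, with medians of 0.79 and 0.58. At an unadjusted p below 0.05 there were 16 at 12 h and 12 at 6 h, a threshold at which all probe sets were not counted. RAD54L ran the other way, with 21 of its 24 probe sets negative at 12 h and a median of -0.40, 0 of them passing (5 at an unadjusted p below 0.05). At 6 h in CCRF-CEM and at both times in DU145 0 member probe sets passed (25, 23 and 27 at an unadjusted p below 0.05), where 0.232%, 0.127% and 0.0252% of all probe sets did.

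Among untreated cells, 4 of the 9 genes were lower in DU145 knockout than in DU145 parent cells and 0 higher, where 11.4% of all genes differed. EXO1 was lower by 0.67 ± 0.12 on the log2 scale (log2 difference -0.67, adjusted p = 0.00236) and BRCA2 by 0.56 ± 0.08 (-0.56, adjusted p = 0.001). BLM read 9.34, 9.92 and 9.77 in parent and 8.97, 9.20 and 9.21 in knockout controls, a difference of -0.55 ± 0.14 (adjusted p = 0.0242). RBBP8 read 11.23, 11.42 and 11.41 against 10.87, 11.06 and 11.07, a difference of -0.35 ± 0.09 (adjusted p = 0.0261). In each of the 4 the parent and knockout arrays did not overlap, a description only, since the share of all genes that separate was not counted. The EXO1 and BRCA2 calls held without any 1 array, and those of BLM and RBBP8 were lost without parent control array 2 or 3 or knockout control array 1 (adjusted p up to 0.105 and 0.0979). RBBP8 was also lost under cyclic loess (-0.26, adjusted p = 0.0766) and with the mean of all probe sets (-0.28, adjusted p = 0.089), and with that mean BRCA1 passed as lower, at -0.37 (adjusted p = 0.017) against -0.10 at its brightest probe set. Of the 196 probe sets 161 had a negative difference and 11 passed, all lower, 6 of them of BRCA2 (2.18% of all probe sets differed). These untreated arrays are also the baseline of the camptothecin changes in DU145 knockout cells. The EXO1 and BRCA2 rises there, nominally larger than in parent cells at the brightest probe sets, are thus not independent of these lower starts. Neither gene passed the DU145 genotype difference. With the mean of all probe sets it was -0.11 at 6 h and -0.01 at 12 h for EXO1, and -0.19 and 0.09 for BRCA2. In CCRF-CEM 0 members differed between untreated genotypes (1 at an unadjusted p below 0.05), against 1.51% of all genes, and 0 of 196 probe sets did, against 0.405% of all.

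Between the lines, untreated parent cells differed in 5 of the 9 genes at their brightest probe sets, where 37.1% of all genes differed. RAD54L was lower in DU145 than in CCRF-CEM by -1.70 ± 0.19 (adjusted p = 2.27e-08), BLM by -0.82 ± 0.12 (adjusted p = 3.16e-06), BRIP1 by -0.42 ± 0.12 (adjusted p = 0.00496) and BRCA2 by -0.28 ± 0.08 (adjusted p = 0.00618). RBBP8 was higher in DU145, by 0.43 ± 0.09 (adjusted p = 0.000403). All 5 held without any 1 array. In all 5 the arrays of the lines did not overlap, which is a description, since overlap was not counted over all genes. The BRCA2 call was lost with the mean of all probe sets (-0.19, adjusted p = 0.135) and, like that of BRIP1, in a fit of the compared arrays alone (adjusted p = 0.118 and 0.0889). Of the probe sets 12 were higher and 59 lower in DU145 (25.9% of all differed), 19 of the 24 of RAD54L, 19 of the 26 of BLM and 11 of the 17 of BARD1 among the lower ones. The BARD1 difference at its brightest probe set, -0.20 ± 0.28 (adjusted p = 0.638), includes the low CCRF-CEM array described above. Without that array it was -0.79 and passed (adjusted p = 0.00118), and so did the mean of all 17 probe sets, at -0.82 ± 0.11 (adjusted p = 1.69e-07), so the count of 5 leaves out BARD1 through 1 array. The lines differ in tissue of origin and in much else, which cannot be told apart here.

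The responses of the parent cells differed between the lines in 2 members at each time, read at their brightest probe sets. At 6 h, where 5.28% of all genes differed, BRIP1 (-0.67 ± 0.17, adjusted p = 0.0158) and EXO1 (-0.51 ± 0.14, adjusted p = 0.0267) had lower changes in DU145 than in CCRF-CEM. The BRIP1 call was lost without DU145 parent 6 h array 1, CCRF-CEM parent control array 1 or CCRF-CEM parent 6 h array 3 (adjusted p up to 0.0614), and the EXO1 call without DU145 parent control array 3, DU145 parent 6 h array 2, CCRF-CEM parent control array 1 or 2 or CCRF-CEM parent 6 h array 3 (adjusted p up to 0.099). With the mean of all probe sets the EXO1 difference was -0.28 ± 0.14 and did not pass (adjusted p = 0.242), while that of BRCA2 was -0.52 ± 0.15 and passed (adjusted p = 0.0188), against -0.22 at its brightest. At 12 h, where 10.5% of all genes differed, BRCA2 changed less in DU145 (-0.73 ± 0.12, adjusted p = 9.38e-05) and RAD54L more (1.16 ± 0.27, adjusted p = 0.00512), and both held without any 1 array. The RAD54L call was lost in a fit of the compared arrays alone (adjusted p = 0.0558), as were both 6 h calls. BRIP1 at 12 h, -0.48 ± 0.17 (adjusted p = 0.0649), passed under 4 alternatives, among them the mean of all probe sets, at -0.59 ± 0.15 (adjusted p = 0.00628). Over probe sets 3 were lower and 0 higher at 6 h, all 3 of BRCA2 (1.05% of all differed), and 14 were lower and 5 higher at 12 h (3.31%), 13 of the lower ones of BRCA2 and all 5 higher ones of RAD54L. In knockout cells 0 members differed between the lines at 6 h or at 12 h (limma; 1 at an unadjusted p below 0.05 at each time), where 2.07% and 5.58% of all genes did.

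The median change of the 9 was above 0 in all 8 comparisons, and all 9 changes were positive in DU145 parent cells at 12 h, CCRF-CEM parent cells at 6 h and CCRF-CEM knockout cells at 12 h. How members varied together around their own mean change is a separate measure, in which pairs ran from opposed to alike. After subtraction of the control mean of the same population, Pearson r over the 24 arrays ranged from -0.79 (BRCA2 and RAD54L) to 0.74 (BARD1 and BRIP1) over the 36 pairs, with a median of 0.08, 4 pairs above 0.5 and 15 below 0. The BARD1 values rest on the control mean that holds the array at 8.31. Without that array, an alternative chosen after seeing the data, the highest pair was still BARD1 and BRIP1, at 0.57, the lowest was -0.79 and the median 0.06. The arrays of a population share their control mean, so these are descriptions. Among 15566 protein coding genes with a mean of 5 or more, the 2 most like each member by the same measure were VASP (0.92) and ATP6V0E2 (0.91) for BRCA2, ACTL6A (0.91) and SF3B3 (0.90) for RAD54L, and KRCC1 (0.94) and CSGALNACT2 (0.94) for BARD1. Without the array at 8.31 those of BARD1 fell to 0.75 and 0.73, and ZNF780B (0.87) and C11orf58 (0.84) were the most like it. For EXO1 they were MBNL2 (0.81) and ME3 (0.80), for RBBP8 ARHGEF26 and CAPN7 (both 0.89), for BRIP1 SMCHD1 and ANKRD17 (both 0.87) and for PALB2 PDIA4 (0.83) and SLC20A1 (0.79). For BRCA1 they were PLOD3 (0.79) and IFT46 (0.77), and for BLM RIDA (0.76) and KIF14 (0.70).

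The order of the changes in DU145 parent cells ran with the annotated lengths of the 9 genes. RefSeq (GRCh38.p14) gives 30.8 kb for RAD54L, 38.1 kb for PALB2, 42.0 kb for EXO1, 84.0 kb for BARD1, 85.2 kb for BRCA2, 98.8 kb for BLM, 112.3 kb for RBBP8, 126.0 kb for BRCA1 and 184.4 kb for BRIP1. Each length spans the whole annotated gene. Annotated starts of BRCA1 and RBBP8 lie well inside these spans, so transcripts from them are shorter and the order by transcript length may differ. No rank correlation was computed with such lengths. At 6 h in DU145 parent cells the 3 that rose were the 3 shortest and the member that fell was the longest. Spearman's rho between length and log2 change over the 9 genes was -0.97 at 6 h and -0.90 at 12 h in DU145 parent cells, -0.65 and -0.58 in DU145 knockout cells, -0.67 and 0.18 in CCRF-CEM parent cells, and -0.63 and -0.65 in CCRF-CEM knockout cells. Without the low BARD1 control array the CCRF-CEM parent values were -0.52 and 0.25. Over the 22195 genes with an annotated length it was -0.13 and -0.11, -0.12 and -0.11, -0.07 and -0.01, and -0.08 and -0.003 in the same order. These values are across genes of the same arrays, genes are not independent replicates, and the part of length in the changes was not tested. In CCRF-CEM parent cells at 12 h the longest gene, BRIP1, rose and the shortest, RAD54L, had a change of -0.14.

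**Figure D4:**
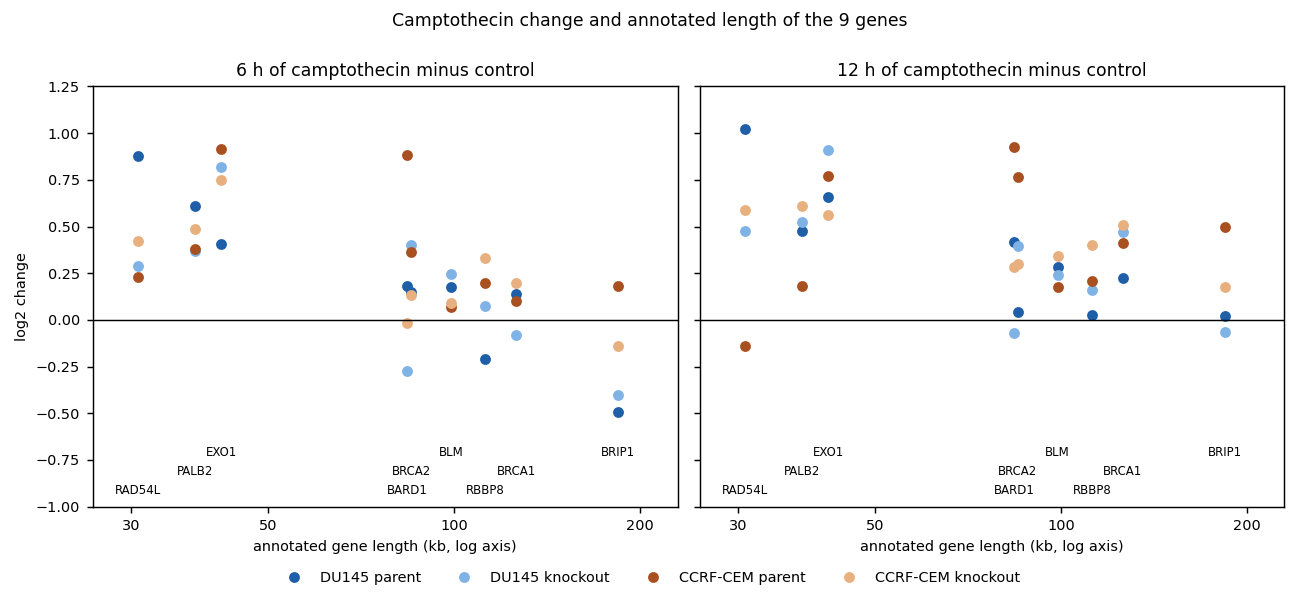
Log2 change from control (vertical axis) against annotated gene length in kb on a log axis (horizontal axis) for the 9 genes at 6 h and 12 h; points are the brightest probe set in the 4 populations. At 6 h the DU145 parent changes run from 0.88 for RAD54L, the shortest gene, to -0.49 for BRIP1, the longest.

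More of the other genes of the pathway rose than fell in 7 of the 8 comparisons. Of a list of 31 further homologous recombination genes 29 were measured and 2 are not analysed here. Of the 29, 6 rose and 1 fell at 6 h in DU145 parent cells, and 5 and 1 did at 12 h, and in DU145 knockout cells 6 and 0 and then 10 and 1. CCRF-CEM parent cells had 6 and 2 and then 7 and 0, and CCRF-CEM knockout cells 1 and 2 and then 6 and 1. Over all genes 3.52% to 9.51% were called higher and 2.81% to 7.3% lower. The falls, 0 to 2 of 29, lie near that background, as do both counts in CCRF-CEM knockout cells at 6 h (all genes 3.52% and 2.92%). The list's median change was 0.07 to 0.35 across these 8 comparisons, against -0.02 to 0.04 over all genes.

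XRCC3, a subunit of a complex that steadies the recombinase filament, rose by 0.87 ± 0.12 in DU145 parent cells at 6 h (adjusted p = 0.000328) and by 0.90 ± 0.12 in DU145 knockout cells (adjusted p = 0.000559). HROB, which brings the MCM8-MCM9 helicase to repair sites, rose at 12 h by 0.95 ± 0.10 in DU145 knockout cells (adjusted p = 7.3e-05) and by 0.88 ± 0.14 in CCRF-CEM parent cells (adjusted p = 0.000467). TOP3A, the topoisomerase that works with BLM, rose at 12 h by 0.59 ± 0.13 in DU145 parent cells (adjusted p = 0.0126) and 0.64 ± 0.12 in CCRF-CEM parent cells (adjusted p = 0.00124), although BLM passed in neither. Also among the largest rises were SFR1 (0.68, DU145 parent cells at 6 h), XRCC2 (0.80, DU145 knockout cells at 6 h, and 0.35, CCRF-CEM knockout cells at 6 h), RAD51D (1.05, DU145 knockout cells at 12 h), GEN1, a junction resolvase (0.60, CCRF-CEM parent cells at 6 h), and, among genes called at 12 h for the CCRF-CEM knockout, RAD51B (0.91) and RMI1 (0.62), a partner of BLM. The falls were of RAD50, part of the complex that acts with RBBP8 at broken ends, by -0.42 ± 0.10 (adjusted p = 0.0158) and -0.39 ± 0.10 (adjusted p = 0.0311) in DU145 parent cells and -0.50 ± 0.09 (adjusted p = 0.00467) and -0.49 ± 0.09 (adjusted p = 0.00516) in CCRF-CEM knockout cells. ATM, the kinase that responds to breaks, fell by -0.50 ± 0.08 in CCRF-CEM parent cells at 6 h (adjusted p = 0.00042) and -0.55 ± 0.08 in the knockout cells of that line at 6 h (adjusted p = 0.000613), and by -0.42 ± 0.12 in DU145 knockout cells at 12 h (adjusted p = 0.0339). SLX4, a nuclease scaffold, fell by -0.40 ± 0.12 in CCRF-CEM parent cells at 6 h (adjusted p = 0.0452).

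Genes on the competing side were called in each of the 8 comparisons. Of 10 measured genes of the BRCA1-A complex and of end protection, which hold resection back, 0 to 2 rose and 1 or 2 fell in each of the 8 comparisons. BABAM2, a scaffold of the BRCA1-A complex named here after its values were seen, fell in all 8, by -1.15 to -1.82. Of 10 end joining genes 0 or 1 rose and 1 to 4 fell, the 4 (XRCC4, XRCC5, LIG4 and PRKDC) in CCRF-CEM parent cells at 12 h. Over all genes 3.52% to 9.51% were higher and 2.81% to 7.3% lower in these 8 comparisons, and rises of 0 to 2 of 10 genes lie near the former. The 4 of 10 end joining genes lower in CCRF-CEM parent cells at 12 h lay above the 7.3% of all genes lower there. Lists of 10 genes are too short to set the smaller counts of falls apart from such shares. XRCC4, a partner of the end joining ligase also named after its values were seen, fell by -1.23 ± 0.29 and -1.25 ± 0.29 in DU145 parent and knockout cells at 6 h (adjusted p = 0.0148 and 0.0153). Cell-cycle genes moved beside the members, against the same shares over all genes: of 19 genes of the G1/S transition 11, 13, 12 and 13 rose in the 4 DU145 comparisons (parent 6 h and 12 h, knockout 6 h and 12 h) and 4, 7, 11 and 6 in the same order in CCRF-CEM, and of 20 mitotic genes 15, 12, 13 and 14 and then 14, 13, 13 and 6 fell. In untreated DU145 knockout against parent cells 7 of the 19 G1/S genes were lower and 1 higher, and 6 of the 20 mitotic genes were higher and 0 lower. A shift in the share of cells in S phase and a change of RNA per cell cannot be told apart in these bulk samples, and the part of either in the members' changes was not tested.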

How the data were processed

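The deposited table holds log2 values of 352859 probe sets on 36 Affymetrix exon-level arrays, made by the authors with RMA in Partek, per the submitters' processing notes. Their versions and the genome build are not given in the sources used here. Probe sets were named from the platform annotation, with symbols updated through RefSeq: 259224 had 1 symbol, 13116 several and 80519 none, and only the first kind was used by gene. Of the genes, 20529 symbols were current, 1726 were updated and 65 kept. Each gene was tested by its brightest probe set with limma 3.58.1 in R 4.3.3 (lmFit and eBayes), 1 fit per line over 18 arrays and 6 groups and 1 fit of all 36 for differences between lines, with Benjamini-Hochberg adjustment over 22260 genes, or over all probe sets, and a threshold of 0.05. The number of arrays limits the precision. Shares called over all genes or probe sets are at an adjusted p below 0.05. None was counted at an unadjusted p or for arrays that do not overlap. The alternatives were a replicate block, a variance trend with robust moderation, cyclic loess, a mean of at least 5, the mean of all probe sets, 1 fit of all arrays, fits of the compared arrays alone, and leaving out each array. The fits were tested on simulated data. The members and gene lists were chosen with earlier results of these data known. All 9 members are described. Of the other recombination genes, those named were among the 2 most positive or 2 most negative changes that passed in a comparison with control.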

Additional observations from a re-analysis of the deposited data

Results flagged for a closer look

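Responses that differed between times, genotypes or lines by a test of the difference itself are gathered here. The 1 of 9 members between times in CCRF-CEM parent cells and the 1 of 9 between CCRF-CEM genotypes at 12 h lie near the shares of all genes, 5.78% and 7.91%. For probe sets that genotype difference passed in 1 of 196, against 1.27% of all. The line differences of parent cells, 2 of 9 at each time, stand beside 5.28% of all genes at 6 h and 10.5% at 12 h. In CCRF-CEM parent cells BRCA2 rose further from 6 h to 12 h, by 0.40 on the log2 scale, a call lost in 5 of 6 omissions of 1 array. RAD54L had a lower 12 h response in CCRF-CEM parent than knockout cells, by -0.73 (-0.29 and not passing with the mean of all its probe sets, and lost in 6 of 12 such omissions). BRCA2 probe set 16773847 had a higher one, by 0.94. At its brightest probe set the BRCA2 genotype difference did not pass. With the mean of all BRCA2 probe sets it passed at 6 h and at 12 h, at 0.61 and 0.76 (limma, adjusted p = 0.0337 and 0.00502). Between the parent cells of the lines, DU145 minus CCRF-CEM, the 6 h response differed by -0.51 for EXO1 (-0.28 and not passing with the mean of all its probe sets) and -0.67 for BRIP1, calls lost in 5 and 3 of 12 omissions, and the 12 h response by -0.73 for BRCA2 and 1.16 for RAD54L.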

How the results depend on the processing

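Of 41 calls on the 9 genes, 17 passed under every alternative run for them. The replicate numbers did not pair the arrays (correlations of deviations -0.17 to 0.16). With them as a replicate block, 202 of 207 member results kept their call, 2 lost it (PALB2 in DU145 knockout cells at 12 h and BRCA2 between untreated lines, limma adjusted p = 0.0511 and 0.0596) and 3 gained it, 2 members changed from 6 h to 12 h in CCRF-CEM parent cells (1 without the block), and 7 member probe sets in DU145 knockout cells at 6 h (15 without). With the variance trend, members changed from 6 h to 12 h numbered 1 in DU145 parent, 1 in DU145 knockout and 3 in CCRF-CEM parent cells, 4 changed at 6 h in CCRF-CEM knockout cells and 2 in the CCRF-CEM genotype difference at 12 h, where cyclic loess and the filter also gave 2. The mean of all probe sets gave 1 from 6 h to 12 h in DU145 knockout cells, 1 in CCRF-CEM knockout cells and 1 in the CCRF-CEM genotype difference at 6 h. It turned the line difference of BRCA1 at 6 h in parent cells from 0.04 to -0.39 (limma, adjusted p = 0.0327). The fit of all arrays gave 1 from 6 h to 12 h in both DU145 genotypes. With the compared arrays alone, line differences of parent cells fell to 3 untreated, 0 at 6 h and 1 at 12 h, with fewer arrays in the fit. Member probe sets changed numbered 20 with the trend and 24 with the filter in DU145 parent cells at 6 h, 25 and 32 in DU145 knockout cells at 6 h, 27 and 32 at 12 h, 13 and 17 at 6 h in CCRF-CEM knockout cells, 28 and 22 at 12 h (3 with cyclic loess), and 6 and 4 from 6 h to 12 h in CCRF-CEM parent cells. The filter gave 1 from 6 h to 12 h in DU145 parent cells. The other causes were not tested.

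With each array left out, members changed at 6 h and 12 h numbered 0 to 4 and 1 to 2 in DU145 parent cells, 2 to 3 and 2 to 3 in DU145 knockout cells, 2 to 3 and 3 to 5 in CCRF-CEM parent cells, and 1 to 2 and 3 to 5 in those of the CCRF-CEM knockout. The 0 was without DU145 parent 6 h array 3. They numbered 2 to 4 between untreated DU145 genotypes, 5 to 6 between untreated lines, 0 to 3 and 2 to 2 for the line differences at 6 h and 12 h in parent cells, 0 to 1 from 6 h to 12 h in CCRF-CEM parent cells, 0 to 1 for the CCRF-CEM genotype difference at 12 h, and 0 to 0 elsewhere. Member probe sets numbered 1 to 4 and 5 to 14, 4 to 11 and 8 to 12, 13 to 22 and 28 to 38, and 2 to 7 and 0 to 4 in the same order of populations, and 0 to 0 from 6 h to 12 h. For CCRF-CEM knockout cells at 12 h the 0 was without control array 1 or 12 h array 2 or 3.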
